A study of Mus musculus with 4 samples.

Results

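MAP kinase feedback genes encode the brakes that cells make in response to their own MAP kinase activity. Described here are 10 of them, chosen by name: the dual-specificity phosphatases Dusp1, Dusp2, Dusp4, Dusp5, Dusp6, Dusp10 and Dusp16, the Sprouty genes Spry1 and Spry2, and the related Spred1. All 10 were found among the 23356 gene rows of the authors' deposited table. They were measured in Th17 cells, CD4 T cells defined by their production of IL-17, grown from wild-type C57BL/6 mice 6 to 8 weeks old and cultured for 48 h. The SAA1 group (2 libraries) received recombinant murine serum amyloid A1, an acute-phase protein, labelled as 2 ng/ml, and the vehicle group (2 libraries) carries the treatment label none. The culture is an in vitro one, the cells were sequenced in bulk, and the labels do not say whether libraries came from separate mice or cultures, so the p-values may measure technical spread alone. The question of the comparison is what SAA1 changes in the transcripts of these cells.

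Expression is given in FPKM (fragments mapped to a transcript, scaled to its length and to the size of the library), as a single value that the authors' Cuffdiff run made for each group from its libraries. The spread between libraries cannot be shown, the reads per library are unknown, and in bulk RNA fewer cells of a type and less RNA per cell cannot be told apart. Each log2 ratio below is SAA1 over vehicle, with the SE implied by the authors' test statistic, and a gene is called at an adjusted p under 0.05 in the authors' deposited table. For the T cell label, 8 of 8 T cell markers were present, at 28.2 FPKM or more in SAA1 cells and 39.1 FPKM or more in vehicle cells. Of these, Thy1 was 1.47-fold higher with SAA1 (adjusted p = 0.0019) and Cd3e was 1.39-fold lower (adjusted p = 0.039), both called by the authors' deposited table. With a two-sided normal p taken from the authors' statistic in place of their p, the adjusted p was 0.18 for Thy1 and 0.47 for Cd3e. Neither was then called, and the part of both genes in the results below was not tested. Of the 25 markers of B cells, myeloid cells, CD8 and NK cells, fibroblasts and epithelium, 24 were under 1 FPKM in both groups. The exception was Cd8b1, at 4.24 FPKM in SAA1 cells and 4.32 FPKM in vehicle cells.

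MAP kinases are switched on by phosphorylation of a threonine and a tyrosine in their activation loop. Dual-specificity phosphatases remove both phosphates, and their genes are themselves induced by the kinases, which closes a negative feedback loop. Dusp1, Dusp2, Dusp4 and Dusp5 encode inducible enzymes of the nucleus, Dusp6 an enzyme of the cytoplasm that prefers ERK, and Dusp10 and Dusp16 enzymes that prefer JNK and p38. Sprouty and Spred proteins act further upstream, where they restrain the activation of Ras and Raf below membrane receptors. In T cells several of these genes are known to be induced by signals through the T cell receptor.

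The 7 phosphatases share a catalytic loop of 8 codons, shown here because it holds the catalytic cysteine. The coding strand is given on GRCm38 with the codon of the catalytic cysteine in capitals.
Dusp1: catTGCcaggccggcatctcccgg
Dusp2: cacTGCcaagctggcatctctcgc
Dusp4: cacTGCcaggccggcatctcccga
Dusp5: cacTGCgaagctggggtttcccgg
Dusp6: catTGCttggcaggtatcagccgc
Dusp10: cacTGCcaggccggcgtgtcccga
Dusp16: cacTGCttagctgggatctctcgc
The stretches lie at chr17:26506592-26506615 (Dusp1, minus strand), chr2:127337616-127337639 (Dusp2), chr8:34818433-34818456 (Dusp4), chr19:53540951-53540974 (Dusp5), chr10:99266027-99266050 (Dusp6), chr1:184074293-184074316 (Dusp10) and chr6:134720559-134720582 (Dusp16, minus strand), and those with no strand named are on the plus strand. Each is coding sequence, in exon 4 of 4 in Dusp1, Dusp2, Dusp4, Dusp5 and Dusp10, exon 3 of 3 in Dusp6 and exon 6 of 7 in Dusp16, in the GENCODE transcript with the longest coding sequence. Of the 24 bases, 12 were the same in all 7 genes. Each stretch was located by a shared amino acid pattern, so most of this identity was fixed by the search. So short a stretch does not measure how closely related the genes are. Pairs shared between 13 bases (Dusp5 and Dusp6) and 22 bases (Dusp4 with Dusp1 and with Dusp10).

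Dusp4 rose and Dusp2 fell with SAA1, and the other 8 members were not called. Dusp4, which encodes the nuclear phosphatase MKP-2 of ERK and JNK, was at 146 FPKM in SAA1 cells and 73.3 FPKM in vehicle cells. Its ratio was 2.00-fold, with a log2 ratio of 1.00 ± 0.20 and a 95% interval of 0.60 to 1.39. Dusp2, which encodes PAC-1, a nuclear phosphatase enriched in lymphoid cells that in mice has also been described to act on STAT3, was at 177 FPKM in SAA1 cells and 239 FPKM in vehicle cells. It was 1.35-fold lower with SAA1, with a log2 ratio of -0.44 ± 0.20 and a 95% interval of -0.83 to -0.05. The authors' deposited table gives Dusp4 an adjusted p of 0.0019, its lowest, tied among 300 genes, and Dusp2 one of 0.033. These were 1 of 10 members called higher, against a background of 3.97% of the 11481 tested genes, and 1 of 10 called lower, against 2.55%. Calls in either direction took 6.52% of tested genes, or 4.56% of those at 10 FPKM or more in 1 of the groups, so 2 calls among 10 chosen members say little of them as a set. With a two-sided normal p taken from the authors' own statistic in place of their p, the adjusted p was 0.00013 for Dusp4 and 0.45 for Dusp2, so the call of Dusp2 rests on the p-values as deposited.

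**Figure D1:**
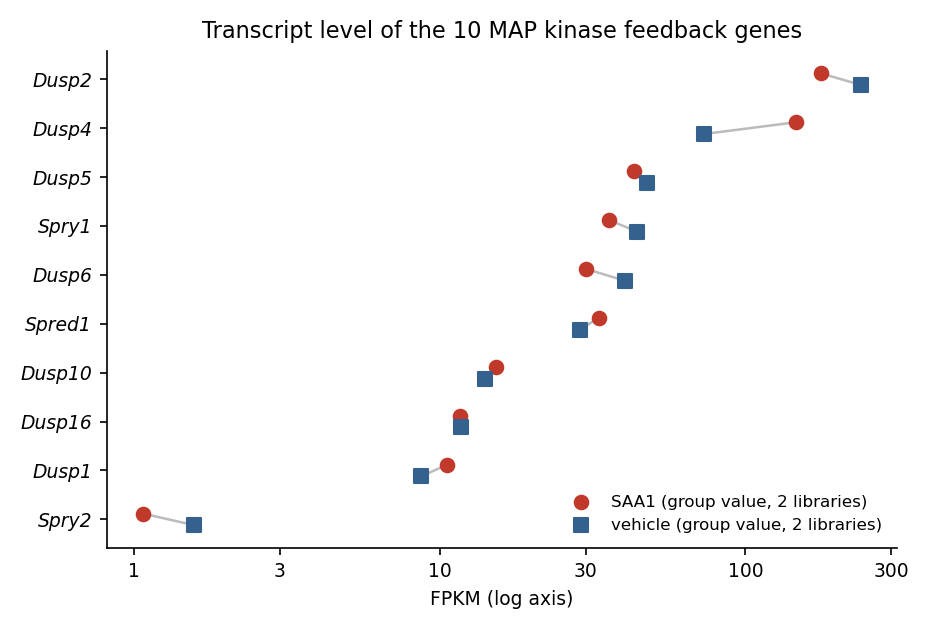
FPKM of each member (log axis) in the SAA1 group (circles) and the vehicle group (squares), 1 value per group from 2 libraries, ordered by the vehicle value. Dusp4 lies at 146 FPKM with SAA1 and 73.3 FPKM with vehicle, the widest gap of the 10, and Spry2 lies near 1 FPKM in both groups.

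Dusp2 and Dusp4 moved towards each other in level. Dusp4 stood at 0.828 of the Dusp2 level in SAA1 cells and 0.306 of it in vehicle cells, in FPKM. The log2 ratios of Dusp4 and Dusp2 differed by 1.44 ± 0.28 (95% interval 0.88 to 1.99), taking their errors as independent. These are the members that were called, in opposite directions, so the difference adds no support to their calls. Both ranked above the other members in either group, with Dusp2 first and Dusp4 the next.

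Summed over the 10 typical MAP kinase phosphatases, which add Dusp7, Dusp8 and Dusp9 to the 7 members, the level was 443 FPKM in SAA1 cells and 444 FPKM in vehicle cells. The make-up of that sum differed. Dusp4 made up 33.0% of it in SAA1 cells and 16.5% in vehicle cells. Dusp2 made up 39.9% in SAA1 cells and 53.9% in vehicle cells, and the pair together made up 73.0% in SAA1 cells and 70.5% in vehicle cells. The 4 nuclear inducible phosphatases summed to 377 FPKM in SAA1 cells and 369 FPKM in vehicle cells, and the JNK and p38 class of Dusp8, Dusp10 and Dusp16 to 27.2 FPKM in SAA1 cells and 26.1 FPKM in vehicle cells. The cytoplasmic ERK class of Dusp6, Dusp7 and Dusp9 summed to 38.7 FPKM in SAA1 cells and 48.6 FPKM in vehicle cells. Of these, Dusp6 was at 30.1 FPKM in SAA1 cells and 40.3 FPKM in vehicle cells, and was not called. Dusp7 was at 7.29 FPKM with SAA1 and 7.37 FPKM with vehicle. Dusp9 was at 1.31 FPKM with SAA1 and 0.915 FPKM with vehicle, and neither gene was called. No error was computed for the sums, and a constant sum in FPKM does not show a constant amount of enzyme.

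**Figure D2:**
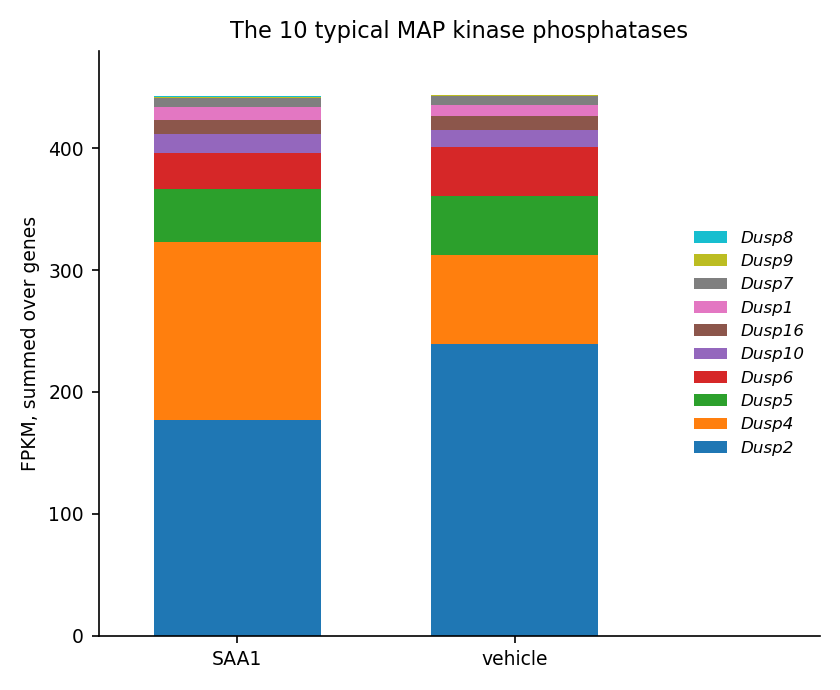
FPKM of the 10 typical MAP kinase phosphatases stacked in the SAA1 group (left) and the vehicle group (right), 1 value per group. The bars are of nearly equal height, at 443 FPKM with SAA1 and 444 FPKM with vehicle, while the Dusp4 band takes 33.0% of the SAA1 bar and 16.5% of the vehicle bar.

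Among the remaining nuclear phosphatases, neither Dusp1 nor Dusp5 was called. Dusp1, which encodes MKP-1, an early-response phosphatase best known for its action on p38 and JNK, was at 10.6 FPKM in SAA1 cells and 8.71 FPKM in vehicle cells. Its log2 ratio was 0.28 ± 0.24 (95% interval -0.20 to 0.76), and the authors' deposited table gives it an adjusted p of 0.46. Dusp5, whose product is specific for ERK and anchors it in the nucleus, was at 43.2 FPKM in SAA1 cells and 47.7 FPKM in vehicle cells. Its log2 ratio was -0.14 ± 0.21 (95% interval -0.57 to 0.28; adjusted p 0.77 in the authors' deposited table). With errors taken as independent, the log2 ratio of Dusp4 exceeded that of Dusp1 by 0.72 ± 0.32 (95% interval 0.10 to 1.34). The excess over Dusp5 was 1.14 ± 0.29 (0.57 to 1.72), on the same terms. Dusp4 had the largest ratio of all members, so these differences add no support to its call.

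Dusp6 lay just outside the threshold. It encodes MKP-3, the phosphatase that holds ERK in check in the cytoplasm, and was at 30.1 FPKM in SAA1 cells and 40.3 FPKM in vehicle cells. Its log2 ratio of -0.42 ± 0.20 (95% interval -0.82 to -0.02) was close to that of Dusp2, and the authors' deposited table puts its adjusted p at 0.052. With the normal p its adjusted p was 0.54. At an adjusted p under 0.1 it would be called lower beside Dusp2, and 4 of the 10 members had an unadjusted p under 0.05, with Dusp4 higher and Dusp2, Dusp6 and Spry1 lower. The normal p of Spry1 was 0.13, above that threshold. That unadjusted threshold is passed by 15.8% of tested genes in either direction and by 7.62% in the lower one.

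The phosphatases of JNK and p38 differed by less than their errors. Dusp10, which encodes MKP-5, was at 15.2 FPKM in SAA1 cells and 14.1 FPKM in vehicle cells, a log2 ratio of 0.11 ± 0.22 (95% interval -0.32 to 0.54). Dusp16, which encodes MKP-7, was at 11.7 FPKM in both groups, a log2 ratio of -0.01 ± 0.21 (95% interval -0.43 to 0.41). The authors' deposited table gives adjusted p-values of 0.86 for Dusp10 and 0.99 for Dusp16. A difference of up to about 1.45-fold higher for Dusp10, or 1.33-fold higher for Dusp16, lies within these intervals. Over the 24 bases of the catalytic stretch alone, Dusp10 shares 22 with Dusp4, the closest match of any pair together with Dusp1 and Dusp4.

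The Sprouty genes had log2 ratios below 0 and Spred1 one above 0, and the 3 were not called. Spry1, an inhibitor of receptor signalling to Ras that also restrains T cell receptor signals, was at 35.8 FPKM in SAA1 cells and 44.3 FPKM in vehicle cells. Its log2 ratio was -0.31 ± 0.20 (95% interval -0.71 to 0.09), and the authors' deposited table gives an unadjusted p of 0.031 and an adjusted one of 0.23. Spry2 was the lowest member, at 1.07 FPKM in SAA1 cells and 1.57 FPKM in vehicle cells. Its log2 ratio of -0.56 ± 0.41 had the widest error of the 10 (95% interval -1.37 to 0.25; adjusted p 0.33 in the authors' deposited table). With a pseudocount of 1 FPKM the ratio was -0.32. Spred1, whose product brings the Ras inhibitor neurofibromin to the membrane, was at 33.2 FPKM in SAA1 cells and 28.7 FPKM in vehicle cells, a log2 ratio of 0.21 ± 0.20 (95% interval -0.19 to 0.61; adjusted p 0.55 in the authors' deposited table). The log2 ratio of Spred1 exceeded that of Spry1 by 0.51 ± 0.29, and the 95% interval of that difference, -0.05 to 1.08, included 0.

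**Figure D3:**
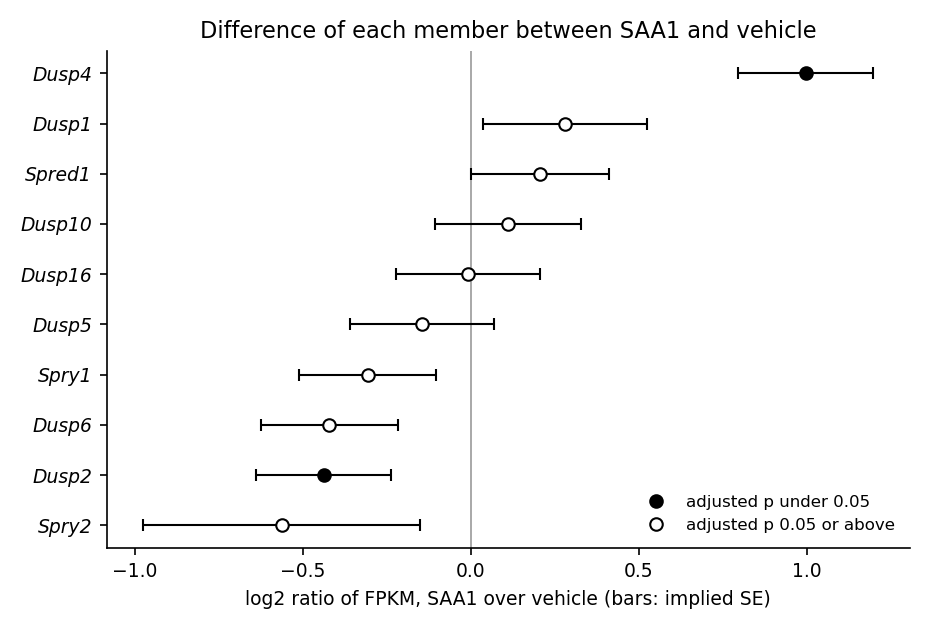
log2 ratio of FPKM, SAA1 over vehicle, for each member, with bars for the SE implied by the authors' statistic and filled points for an adjusted p under 0.05. Dusp4 stands at 1.00, the other 9 lie between -0.56 and 0.28, and only Dusp4 and Dusp2 are filled.

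Across the members, 4 log2 ratios were above 0 and 6 below (5 and 5 after centring on the median of all genes, which takes Dusp16 above 0), and all 10 were tested and had at least 1 FPKM. Their median was -0.08, beside -0.02 over the 10612 genes that reached 1 FPKM in 1 of the groups and were above 0 in both. The median size of the log2 ratio regardless of sign was 0.29 for the members and 0.14 for those genes. Levels spanned 166-fold among the members in SAA1 cells and 152-fold in vehicle cells. The order of levels was the same in both groups for 8 members, while Dusp6 and Spred1 exchanged places 5 and 6, with Spred1 the higher in SAA1 cells and Dusp6 in vehicle cells. The mean level of a member lay at a median percentile of 70.5 among those 10612 genes, with Dusp2 at 96.4 and Spry2 at 4.24. The SE was under 0.25 for 9 of the members. Among the 7410 tested genes with an SE between 0.19 and 0.25, the smallest log2 ratio called had a size of 0.41. Others of those genes were not called at sizes up to 1.11. Of the 514 with a size over 0.4, 72.8% were called, so 0.41 is not a limit of detection for the members.

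The rows lie on mm10 and none of the 10 shares its locus with another row. Dusp4 spans chromosome 8 from 34807610 to 34819894, Dusp2 chromosome 2 from 127336159 to 127338377, and Dusp6 chromosome 10 from 99263231 to 99267489. Each interval is the whole gene with its introns, and the longest coding transcript in GENCODE has 4 exons for Dusp4, 4 for Dusp2 and 3 for Dusp6.

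Promoters are shown for Dusp2, the member that fell and for which a sequence was at hand, and for Dusp5, which was not called and whose promoter holds paired serum response elements. Of the 10 members, 9 matched the RefSeq promoter table (GRCm38.p6), and Dusp4 did not. The 250 bases before the RefSeq start are printed, with motif matches in capitals.
Dusp2: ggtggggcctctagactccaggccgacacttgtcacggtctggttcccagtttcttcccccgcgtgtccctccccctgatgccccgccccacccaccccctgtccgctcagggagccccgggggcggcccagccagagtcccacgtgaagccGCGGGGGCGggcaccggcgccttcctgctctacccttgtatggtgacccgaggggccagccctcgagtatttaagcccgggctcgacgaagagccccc
Dusp5: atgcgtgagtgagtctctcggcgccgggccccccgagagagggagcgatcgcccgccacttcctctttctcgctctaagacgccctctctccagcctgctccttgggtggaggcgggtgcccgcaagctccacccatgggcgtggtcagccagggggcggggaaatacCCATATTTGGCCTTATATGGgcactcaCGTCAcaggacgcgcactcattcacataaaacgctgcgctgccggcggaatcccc
The Dusp2 stretch lies at chr2:127335909-127336158 and the Dusp5 stretch at chr19:53528895-53529144, both on the plus strand. In the Dusp2 promoter the capitals mark a match to the Egr motif (GCGNGGGCG), 98 to 90 bases before the start. In the Dusp5 promoter they mark a pair of adjacent CArG boxes, the serum response element, 82 to 63 bases before the start, and a CRE half-site (TGACG, read on the other strand) 55 to 51 bases before it.

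Of 9 member promoters searched on both strands, 2 held the Egr motif (Dusp2 and Dusp16), against 4.65% of 27025 RefSeq promoters of the same length. The member promoters had a GC content of 56.4% to 70.8% (70.4% in Dusp2 and 68.4% in Dusp16), against a median of 52% over all those promoters, and the part of GC content in these shares was not tested. The full CRE (TGACGTCA), the site of CREB, was in 1 (Dusp1), against 1.62%, and its half-site, which the full site contains, in 3 (Dusp1, Dusp5 and Dusp16), against 17.9%. The CArG box was in 1 (Dusp5), against 1.40%. AP-1 (TGANTCA), ETS (CCGGAA) and STAT (TTCNNNGAA) motifs were in 0 of the 9, against 6.87%, 12.2% and 7.18% of all promoters. A match describes the letters only, and the members that hold one include both a gene that fell and genes that were not called.

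The rest of the pathway was read from 7 lists of 92 genes, of which 91 were in the table and 78 were tested. In all, 4 of these had a call as higher and 3 as lower in the authors' deposited table, which is 8.97% of those tested beside the 6.52% of all tested genes. Among the other typical phosphatases, 0 of 2 tested were called by Cuffdiff's adjusted p or with the normal p, and 0 had an unadjusted p under 0.05. Dusp7, a cytoplasmic ERK phosphatase, was at 7.29 FPKM in SAA1 cells and 7.37 FPKM in vehicle cells, and Dusp9, of the same class, at 1.31 FPKM in SAA1 cells and 0.915 FPKM in vehicle cells (adjusted p 0.32 in the authors' deposited table). Of 8 tested atypical dual-specificity phosphatases, small enzymes without the kinase-docking domain, 0 were called by either and 0 had an unadjusted p under 0.05. Dusp3 was at 4.76 FPKM in SAA1 cells and 3.83 FPKM in vehicle cells, and Dusp14 at 14.7 FPKM in SAA1 cells and 13.0 FPKM in vehicle cells.

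Outside the members, the Sprouty and Spred family held 1 call among 2 tested genes, at a very low level. In either direction, 6.52% of all tested genes were called. Spred3 rose to 0.625 FPKM in SAA1 cells, against 0.195 FPKM in vehicle cells (log2 ratio 1.68 ± 0.53, adjusted p 0.0035 in the authors' deposited table). With the normal p of the same statistic its adjusted p was 0.062, which ends the call. Spred2 was at 3.10 FPKM in SAA1 cells and 3.36 FPKM in vehicle cells, and was not called.

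Other brakes on Ras and ERK held 2 calls, both higher, among 16 tested genes, beside 3.97% of all tested genes called higher. Rasa3, which encodes a GTPase-activating protein that turns Ras and Rap off, rose to 12.7 FPKM in SAA1 cells, against 7.26 FPKM in vehicle cells (log2 ratio 0.81 ± 0.21, adjusted p 0.0019 in the authors' deposited table). Dok1, an adaptor that recruits such proteins, rose to 22.8 FPKM in SAA1 cells, against 16.1 FPKM in vehicle cells (log2 ratio 0.50 ± 0.22, adjusted p 0.023 in the authors' deposited table). From the normal p, the adjusted p was 0.012 for Rasa3 and 0.40 for Dok1, which ends the call of Dok1. The median log2 ratio of the 16 was -0.04.

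The kinases themselves held no call. Of 16 tested genes of the Ras-ERK cascade, 0 were called by Cuffdiff's adjusted p in the authors' deposited table or with the normal p, and 1 had an unadjusted p under 0.05. That gene was Nras, at 53.9 FPKM in SAA1 cells and 66.9 FPKM in vehicle cells (adjusted p 0.21 in the authors' deposited table). Mapk3, which encodes ERK1, was at 7.25 FPKM in SAA1 cells and 5.98 FPKM in vehicle cells. Of 17 tested genes of the JNK and p38 cascade, 0 were called by the same table or with the normal p, and 3 had an unadjusted p under 0.05, each with a log2 ratio above 0. These were Map3k1, a kinase upstream of JNK, at 18.3 FPKM in SAA1 cells and 14.4 FPKM in vehicle cells, Mapkapk3, a kinase activated by p38, with a log2 ratio of 0.33 ± 0.20, and Mapk8, which encodes JNK1, with one of 0.30 ± 0.21. Gadd45a, a stress-induced regulator of p38 whose locus overlaps another row, was not among them, at 2.20 FPKM in SAA1 cells and 3.13 FPKM in vehicle cells. An unadjusted p under 0.05 was found for 15.8% of all tested genes. The unadjusted normal p was above that threshold for Nras (0.12), Map3k1 (0.086), Mapkapk3 (0.095) and Mapk8 (0.15).

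Genes known to respond to ERK moved in both directions. Of the 17 tested genes, the authors' deposited table calls 1 higher and 3 lower, beside 3.97% and 2.55% of all tested genes. The median log2 ratio of the 16 with at least 1 FPKM was -0.02. Ier3, an early-response gene that itself prolongs ERK signals, rose to 36.9 FPKM in SAA1 cells, against 13.5 FPKM in vehicle cells (log2 ratio 1.45 ± 0.24). The zinc-finger factors Egr1 and Egr3 fell, with log2 ratios of -0.91 ± 0.22 and -1.39 ± 0.28. Ier3, Egr1 and Egr3 each had the lowest adjusted p of the authors' deposited table, 0.0019, a value tied among 300 genes. Myc, a driver of cell growth, fell to 40.5 FPKM in SAA1 cells, against 56.4 FPKM in vehicle cells (log2 ratio -0.48 ± 0.20, adjusted p 0.013 in the authors' deposited table), a call that ended with the normal p (adjusted p 0.36). By direction alone, Dusp4 rose as Ier3 did, and Dusp2 fell as Egr1, Egr3 and Myc did. The calls of Dusp2 and Myc both ended with the normal p, and 13 of the 17 tested genes were not called. Whether the members and these genes share a regulator was not tested.

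**Figure D4:**
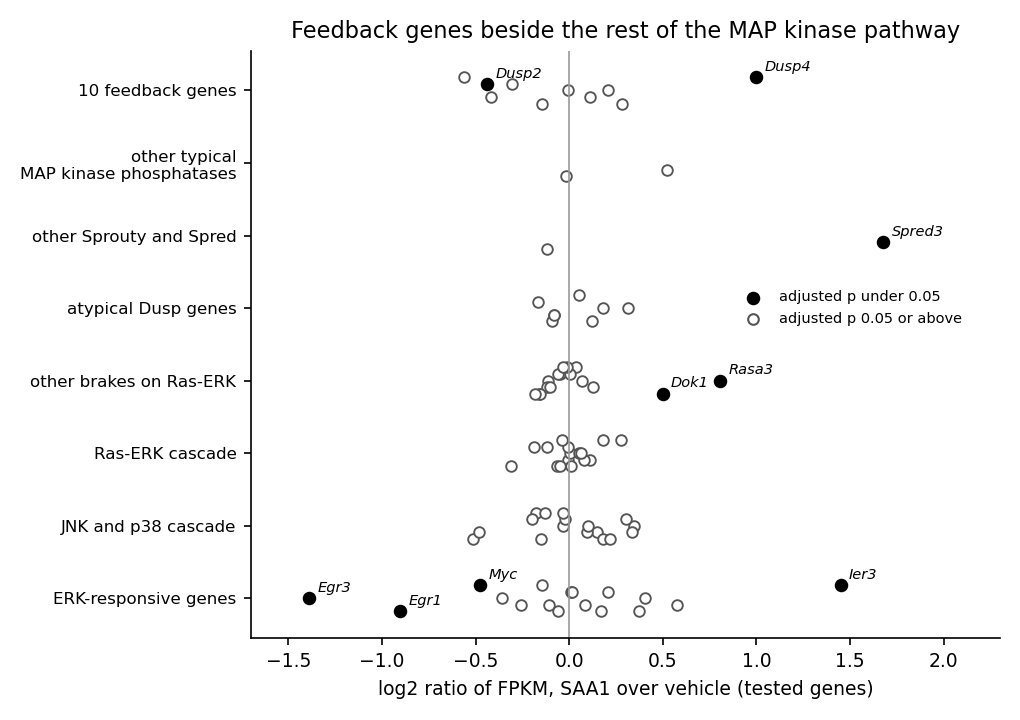
log2 ratio of FPKM, SAA1 over vehicle, of each tested gene, by list; the vertical position within a list has no meaning and filled points have an adjusted p under 0.05. The 16 Ras-ERK cascade genes lie between -0.31 and 0.28 with 0 filled, while the ERK-responsive genes run from -1.39 (Egr3) to 1.45 (Ier3).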

How the data were processed

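Total RNA of cultured Th17 cells went into TruSeq libraries (Illumina), per the labels' protocols. Titles put 2 libraries in the SAA1 group and 2 in the vehicle group. Per the submitters' processing notes, TopHat2 and Cuffdiff were used, with no version given, and builds mm9 and mm10 are listed. The one table holds a value in FPKM per group, made by the authors' Cuffdiff run, per the file headers, with a test statistic (a score) and a p-value and q-value that the authors deposited. Reads per library are unknown, so no interval from counts is given. Of 23356 rows, 11481 were tested by the authors. Log2 ratios were computed from FPKM, and the SE is the ratio over the deposited statistic. Intervals of 95% are normal and use that SE. The deposited p is smaller than the normal p of the same statistic (0.00185 against 0.0281 for Dusp2), for a reason not given in the sources used here. Of 21460 rows matched by symbol to RefSeq on GRCm38, 99.0% overlapped its position there, so starts are given on mm10, counted from 1. Emr1 and Hras1 were matched as Adgre1 and Hras.

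Members and lists were chosen with earlier results of these data known. Named genes are all members, up to 4 called genes per pathway list (smallest adjusted p first), and the largest ratios at 1 FPKM or more where fewer than 2 were called. Cd8b1, Thy1, Cd3e, Mapkapk3, Mapk8 and the tyrosine phosphatases were chosen after their values were seen. Catalytic stretches were located with Biopython 1.88 in GENCODE M21 transcripts. The adjustment of the normal p was tested on simulated data with normal errors, which does not test the deposited p-values. The alternatives were thresholds of 0.01 and 0.1 on the adjusted p, a minimum of 1.5-fold, an adjustment over genes with at least 1 FPKM, the normal p, pseudocounts of 0.1 and 1, centring on the median, and other minimums for the median.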

Additional observations from a re-analysis of the deposited data

How the results depend on the processing

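No paired analysis was possible because the table gives 1 value per group, and the fits that leave out each replicate were not run for the same reason. The call of Dusp4 held under every alternative on the adjusted p listed above. The number of members called lower with SAA1 was 1 as reported. It was 0 at an adjusted p under 0.01, 0 with a minimum of 1.5-fold and 0 with the normal p of the deposited statistic, and 2 at an adjusted p under 0.1, where Dusp6 joined Dusp2. Over genes with at least 1 FPKM the adjusted p of Dusp2 was 0.0326 and that of Dusp6 0.0522. Among the 7 other pathway lists, 2 genes were called higher with the normal p, against 4 as reported. Over all genes, the normal p gave 247 calls, against 749 with the deposited p. The median log2 ratio of the members was -0.01 over the 9 with at least 5 FPKM, against -0.08 as reported. Pseudocounts and centring moved no member's ratio by more than its SE, but a pseudocount of 1 took Spry2 to -0.32, against -0.56 as reported, and centring took Dusp16 to 0.01, against -0.01. The cause of the gap between deposited and normal p was not tested.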

Other observations

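Classical tyrosine phosphatases, which remove the tyrosine phosphate alone, were examined as a further class of brake, with the genes chosen after the data were seen. Ptpn7, the haematopoietic phosphatase that binds ERK and p38, was the most abundant of the 3 that act on MAP kinases, at 62.4 FPKM in SAA1 cells and 79.9 FPKM in vehicle cells (log2 ratio -0.36 ± 0.20, adjusted p 0.12 in the authors' deposited table). Ptpn5, best known in brain, rose to 2.96 FPKM in SAA1 cells, against 1.88 FPKM in vehicle cells (log2 ratio 0.65 ± 0.29, adjusted p 0.034 in the authors' deposited table). Ptprr was listed at 0 in both groups. Of 12 other tyrosine phosphatases of T cells, the authors' deposited table calls 1 lower and 0 higher, beside 2.55% and 3.97% of tested genes. The lower one was Ptpre, whose locus overlaps other rows. It was at 0.768 FPKM in SAA1 cells and 1.45 FPKM in vehicle cells (log2 ratio -0.92 ± 0.31). With the normal p the adjusted p was 0.41 for Ptpn5 and 0.12 for Ptpre, and neither was called.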
